A study of Mus musculus with 12 samples.

Results

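The genes described here are named after parts of the axoneme, the motor of the sperm tail and of motile cilia. They are genes for axonemal dynein chains and their assembly factors, radial spoke proteins, tektins and the cilia and flagella associated proteins (CFAP). They were chosen by name, as all genes whose symbol begins with Dnah, Dnaic, Dnali, Dnal and a digit, Dnaaf, Rsph, Tekt (Tektip not included) or Cfap and that have a probe set with a single gene symbol. These were 68 of the 19938 genes measured. They comprised 5 outer arm heavy chains, 10 inner arm heavy chains, 5 intermediate and light chains, 7 assembly factors, 5 radial spoke proteins, 5 tektins and 31 CFAP genes, and the division into outer and inner arm chains was made by symbol.

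RNA came from whole adult testes of mice on a mixed 129 and C57BL6 background and was read on 12 Affymetrix Mouse Gene 1.0 ST arrays. All 12 samples had the same treatment. WIN 18,446, a compound that blocks the making of retinoic acid, was given at 100 ug per g each day for 7 days, from 2 to 8 days postpartum, then 200 ug of retinoic acid at 9 days postpartum, with 43 to 49 days of recovery. The samples form 6 groups of 2, labelled by stages of the cycle of the seminiferous epithelium from the morphology of the testis. The group XII-I spans the turn of the cycle, II-IV and IV-VI come next, then VII, then VIII-IX, with IX-XI the last. The labels give no other difference between the groups, and give the recovery time as a range without naming it for each group. No untreated testis was compared. About 100 ng of RNA was amplified for each array and 3.75 ug of the resulting cDNA was labelled. Nothing in the labels tells whether both samples of a group are separate animals, and the p-values therefore reflect the spread between samples that may be technical repeats.

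The axoneme is a ring of doublet microtubules around a central pair. Outer and inner dynein arms on each doublet hold heavy chains that burn ATP to slide one doublet along the next, radial spokes pass signals from the central pair to the arms, and tektins and many CFAP proteins line the inside or the outside of the doublets. Dynein arms are put together in the cytoplasm by dedicated assembly factors before they reach the tail. Round spermatids begin to grow this tail early in spermiogenesis and spermatids of more than one age share a tubule during much of the cycle.

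To show the sequences in front of genes whose levels are followed below, 250 bases upstream of the annotated start were taken from RefSeq (GRCm38.p6), which held 65 windows for 58 of the 68 genes. Shown first are the 4 genes with the widest ranges past the F test below whose window holds GTTGCC, an arm of the X-box that RFX transcription factors bind, in capitals on either strand (as GTTGCC or GGCAAC). They are Dnaic2 at chr11:114727169-114727418 (plus strand), Dnah10 at chr5:124724835-124725084 (plus strand), Cfap161 at chr7:83794840-83795089 (minus strand) and Cfap58 at chr19:47937462-47937711 (plus strand). The last is the tektin Tekt4 at chr17:25471340-25471589 (plus strand), whose window holds a longer X-box, in capitals, made of the arms GTNNCC and GGNAAC around 2 free bases. All are written along the gene's own strand, 5′ to 3′, and end at the base before the start.
Dnaic2: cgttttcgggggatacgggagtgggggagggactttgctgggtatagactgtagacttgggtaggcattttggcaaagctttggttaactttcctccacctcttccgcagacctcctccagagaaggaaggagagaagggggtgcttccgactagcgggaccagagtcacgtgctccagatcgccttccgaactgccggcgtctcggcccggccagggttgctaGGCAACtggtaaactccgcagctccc
Dnah10: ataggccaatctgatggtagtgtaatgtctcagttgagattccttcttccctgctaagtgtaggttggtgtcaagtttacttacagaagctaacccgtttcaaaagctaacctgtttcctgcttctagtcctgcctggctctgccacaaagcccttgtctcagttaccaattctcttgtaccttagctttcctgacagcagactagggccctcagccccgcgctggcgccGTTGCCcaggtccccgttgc
Cfap161: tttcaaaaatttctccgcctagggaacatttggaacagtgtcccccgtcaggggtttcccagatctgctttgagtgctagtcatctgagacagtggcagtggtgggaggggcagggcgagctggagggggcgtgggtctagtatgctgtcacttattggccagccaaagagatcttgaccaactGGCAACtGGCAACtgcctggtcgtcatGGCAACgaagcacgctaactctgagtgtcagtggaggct
Cfap58: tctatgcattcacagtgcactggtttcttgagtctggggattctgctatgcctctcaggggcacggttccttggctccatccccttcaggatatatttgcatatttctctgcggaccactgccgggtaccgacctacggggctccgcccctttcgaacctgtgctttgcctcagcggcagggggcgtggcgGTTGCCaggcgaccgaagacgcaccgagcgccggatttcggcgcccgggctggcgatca
Tekt4: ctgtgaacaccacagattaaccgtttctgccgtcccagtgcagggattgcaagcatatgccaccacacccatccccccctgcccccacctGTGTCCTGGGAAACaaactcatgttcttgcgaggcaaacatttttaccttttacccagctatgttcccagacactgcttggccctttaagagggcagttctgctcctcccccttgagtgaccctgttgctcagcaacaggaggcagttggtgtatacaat

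The first base of the motif lies 26 bases before the start in Dnaic2, 20 in Dnah10, 59 in Cfap58 and 160 in Tekt4, and Cfap161 holds 3 copies of it. GTTGCC was present in 20 of the 65 windows (30.8%), against 10.4% of all 32851 windows of the same length. With the letters that follow in the X-box, as GTTGCCNNG, it was present in 13 windows (20%), against 4.09% of all windows. The palindromes that overlap with it were rarer: the form with arms GTNNCC and GGNAAC was in 6 windows (9.23%, against 1.06% of all), the stricter one with arms GTTNCC and GGNAAC in 3 (4.62% against 0.374%), the RFX site GTTGCC followed by ATGG in 1 (1.54% against 0.469%), and arms GTNNCC and GGNAAC around the bases AT in 0 (0.323% of all). Both strands were searched for 11 motifs in all. Of the others, the cAMP response element TGACGTCA was in 1 window (1.54% against 1.55%) and its shorter form TGACGT in 3 (4.62% against 6.47%), the forkhead motifs GTAAACA in 4 (6.15% against 3.17%) and TGTTTGT in 1 (1.54% against 5.84%), and the letters CACCCA in 10 (15.4% against 19.3%). Windows of the close copies Dnah7a, Dnah7b and Dnah7c are counted separately here. The motifs were chosen after these windows were seen, so the shares beside those of all windows are a description and no test. A match is a description of letters, not of a bound site. GTTGCC occurred in front of 18 of the genes, and 10 of these 18 passed the test among stage groups described next, as did 33 of the 58 genes with a window.

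Levels below are log2 intensities, 1 unit of which is a doubling, and the range of a gene is its highest group mean minus its lowest. Signals of different probe sets are not compared with each other. As a check of the samples, Pearson correlations over all genes between the 2 samples of a group ran from 0.987 to 0.995, and 9 of the 12 arrays correlated best with an array of another group, as XII-I sample 2 did with II-IV sample 2 (r = 0.998). Each of these 9 was closest to an array of a neighbouring stage group, and whether every sample fits its stage label was not tested. The summed level of a marker list is the log2 of its added linear intensities, so its brightest genes weigh most. Lcn2 was the brightest of the epididymal markers. VII sample 2 stood apart in its somatic markers, with the highest summed level of the 12 arrays in 5 lists. This sum was 11.88 for 5 macrophage markers (10.53 to 10.80 in the other arrays), 13.88 for 7 Sertoli cell markers (at most 13.45 in the others), 14.26 for 5 Leydig cell markers (at most 13.89), 12.36 for 5 peritubular myoid markers (at most 12.20) and 13.54 for 9 epididymal markers (at most 13.43). The summed levels were 14.99 to 15.28 for 8 spermatocyte markers, 14.14 to 15.18 for 7 round spermatid markers and 16.05 to 16.49 for 9 elongating spermatid markers over the arrays. The lowest Sertoli and Leydig sums were 13.27 and 12.97. Such sums cannot show by themselves that a cell type was present, since they follow their brightest genes. Cells with motile cilia line the ducts that leave the testis, and 4 of 10 markers in their list passed the F test described below. The sum of the list was 12.45 to 12.80 in XII-I, 12.84 to 12.98 in II-IV, 12.99 to 13.09 in IV-VI, 12.80 to 12.92 in VII, 12.54 in both VIII-IX samples and 12.66 to 12.80 in IX-XI. The markers that passed were Foxj1, Ccno, Tppp3 and Muc4, with means of 9.59, 8.33, 9.46 and 8.93 over the arrays. The other 6 averaged 11.94 (Deup1), 8.65 (Mcidas), 7.40 (Tmem212), 6.28 (Gmnc), 5.66 (Sntn) and 5.39 (Scgb1a1, a gene of secretory cells). Deup1, which did not pass, thus weighed most in the sum. The part of cells with motile cilia, and of the somatic cells high in VII sample 2, in the results below was not tested.

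Most of these genes differed among the stage groups. Limma's F test, with Benjamini-Hochberg adjustment over all genes at 0.05, called 37 of the 68 genes (54.4%), against 19.9% of all genes. Among genes with a mean level of at least 10, it called 33 of 55 (60%) against 31.9%. Without adjustment p was under 0.05 for 54 of the 68 (79.4%), against 36.2%. Their swings were moderate: the median range was 0.65 for the 68 genes and 0.34 for all genes, and 12 genes (17.6%) were both called and had a range of at least 1, against 7.5% of all genes. Among called genes alone the median range was no wider, 0.82 for the 37 and 0.86 for all genes called. Testis samples hold many cell types, so fewer cells of a type and less RNA per cell cannot be told apart in any of these values. Leaving out any one of 7 samples moved the count of 37 by more than 1.5 times. It was 20 and 22 when IV-VI samples 1 and 2 were dropped in turn, 14 when VII sample 2 was, 17 for either VIII-IX sample, and 22 and 23 for IX-XI samples 1 and 2. In each of the 12 fits without a sample the share of these genes (20.6% to 55.9%) was above that of all genes (7.61% to 21.4%), and with both second samples of VIII-IX and IX-XI left out, a setting chosen after seeing the data, 0 of the 68 and 19 of all genes passed, with 50 of the 68 (73.5%) at an unadjusted p under 0.05 against 26.4% of all genes.

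**Figure D1:**
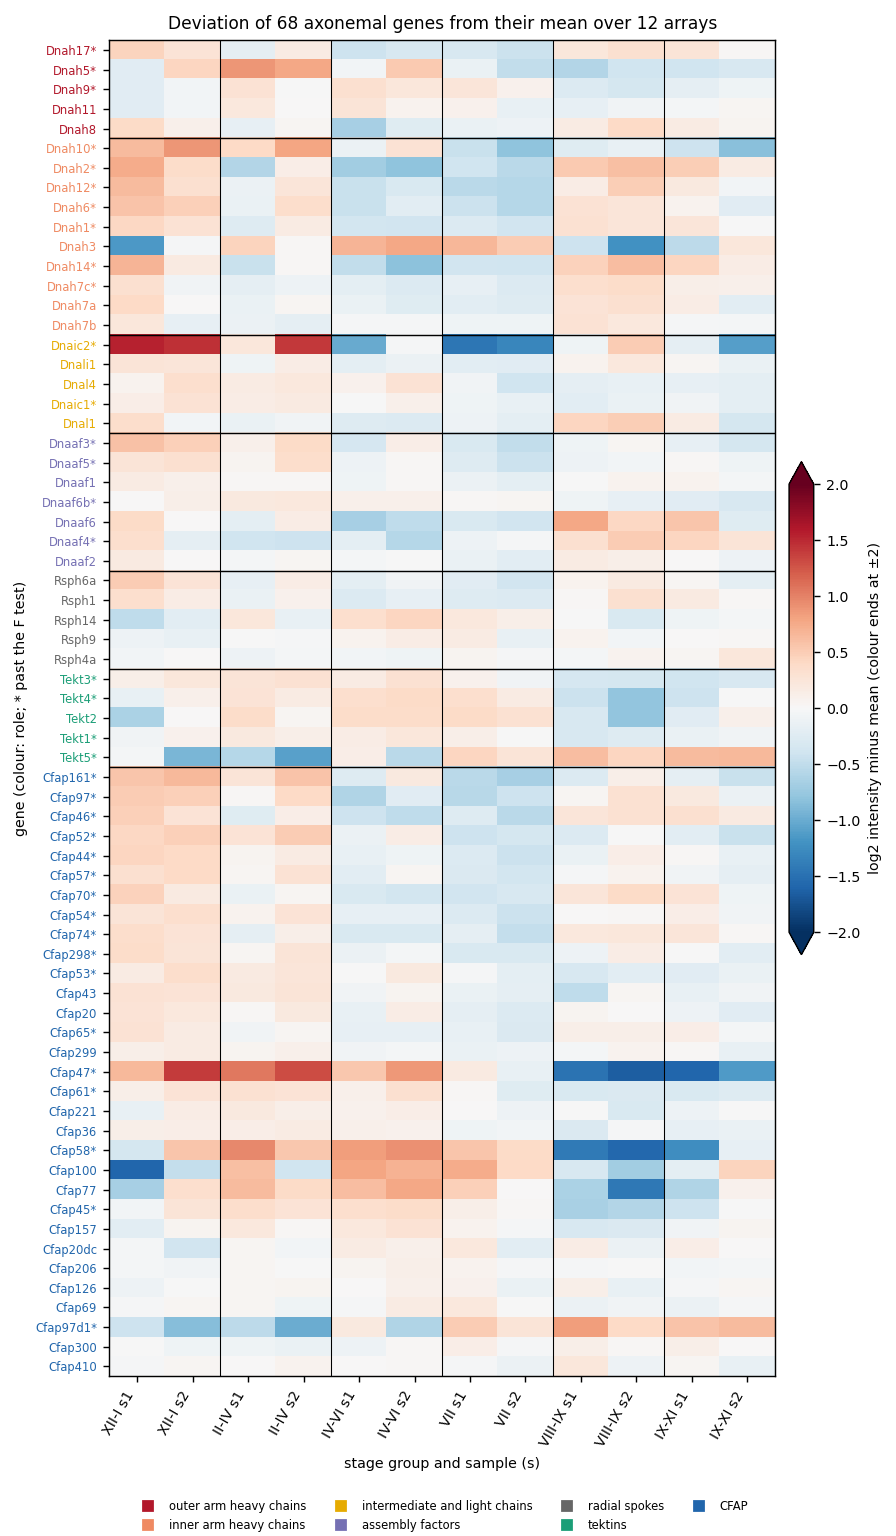
Deviation of each of the 68 genes from its own mean over the 12 arrays (colour, log2 intensity), with genes in rows by role and samples in columns by stage group; an asterisk marks the 37 genes past the F test. Red lies in XII-I for genes such as Dnah10, Dnah6 and Cfap97, blue in VIII-IX for Tekt4, Cfap45, Cfap47 and Cfap58, and Dnaic2 has the widest range, 2.87.

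The genes peaked in different parts of the cycle. Of the 37 called, 22 had their highest mean in XII-I (59.5%, against 31.9% of all genes called). A further 5 peaked in II-IV (13.5% against 13.1%), 5 in IV-VI (13.5% against 16.6%), 0 in VII (5.46% of all genes called), 4 in VIII-IX (10.8% against 20.4%) and 1 in IX-XI (2.7% against 12.6%). The lowest mean lay in VII for 16 (43.2%, against 20.6%), in VIII-IX for 10 (27% against 23.8%), in IV-VI for 5 (13.5% against 17.6%), in II-IV for 3 (8.11% against 11.4%), in IX-XI for 3 (8.11% against 14.1%) and in XII-I for 0 (12.5% of all genes called). The most common course, in 16 genes, ran from a high in XII-I to a low in VII. In 8 genes the high was in II-IV or IV-VI and the low in VIII-IX. No share over all genes called was counted for these courses, so they are not read as particular to these genes. The 5 genes highest in VIII-IX or IX-XI (13.5%) were Tekt5, Cfap97d1, Dnah14, Dnaaf4 and Dnah7c. Of all genes called, 20.4% were highest in VIII-IX and 12.6% in IX-XI. The count of 22 highest in XII-I was 10 in the fits that dropped the first sample of XII-I, of IV-VI or of VIII-IX. Dropping VII sample 2 left 5, dropping VIII-IX sample 2 left 12, dropping IV-VI sample 2 left 13 and dropping IX-XI sample 1 left 14. VII, where 16 of the 37 were lowest, holds sample 2, with the highest somatic marker sums. VII sample 1 had sums of 10.57 for macrophage, 13.40 for Sertoli cell, 13.82 for Leydig cell, 12.14 for peritubular myoid and 12.60 for epididymal markers. Over the 12 arrays the Leydig cell sums ran from 12.97 to 14.26, with 13.89 the second highest. The median deviation of the 68 genes from their own means was -0.11 in VII sample 1 and -0.20 in VII sample 2. The part of somatic cells in these lows was not tested.

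Round spermatid markers ran against that common course: their summed level was 14.14 to 14.35 in XII-I, 14.41 to 14.94 in II-IV, 15.01 to 15.15 in IV-VI, 15.03 to 15.18 in VII, 14.48 to 14.79 in VIII-IX and 14.80 to 15.03 in IX-XI, and limma's F test called 0 of the 7, with 6 at an unadjusted p under 0.05. In the contrasts of a group with the other 5 that follow below, Acrv1 (-1.48) and Izumo1 (-1.32) were lower in XII-I and Acr (-0.28) was lower in VIII-IX. Markers of elongating spermatids summed to 16.36 to 16.41 in XII-I, 16.18 to 16.37 in II-IV, 16.05 to 16.14 in IV-VI, 16.11 to 16.21 in VII, 16.48 to 16.49 in VIII-IX and 16.33 to 16.40 in IX-XI, with 2 of 9 past the test. Their part in the changes of the axonemal genes was not tested.

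Among the outer arm heavy chains, the motors that set beat frequency, 3 of 5 passed the F test. Of these, Dnah5 and Dnah9 were dim, with means of 7.83 and 7.90, under the median of 8.46 over all genes. Dnah17, a chain of the sperm outer arm, had its high in XII-I and its low in VII (1.66-fold, adjusted p = 0.019), and Dnah9 was 1.50-fold higher in IV-VI than in VIII-IX (adjusted p = 0.036). Dnah5, best known from motile cilia of airways, read 7.60 and 8.26 in XII-I, 8.71 and 8.61 in II-IV, 7.77 and 8.35 in IV-VI, 7.70 and 7.33 in VII, 7.24 and 7.43 in VIII-IX and 7.43 and 7.50 in IX-XI. Both II-IV samples of Dnah5 lay above all 10 others, while the low groups VII, VIII-IX and IX-XI overlapped, and the highest mean was 2.50-fold the lowest (adjusted p = 0.028). Its call was kept in 5 of the 12 fits that left out a sample. Dnah8, the other outer arm chain known from sperm, had an adjusted p of 0.051 with a 1.65-fold range from IV-VI to VIII-IX, and Dnah11 had 0.35.

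Inner arm heavy chains shape the bend of the beating tail, and 7 of 10 passed, with a median range of 1.02. Dnah10 read 10.91 and 11.16 in XII-I, 10.68 and 11.06 in II-IV, 10.15 and 10.56 in IV-VI, 9.83 and 9.47 in VII, 10.02 and 10.12 in VIII-IX and 9.86 and 9.44 in IX-XI. The 4 samples of XII-I and II-IV lay above the 8 others, and the 4 samples of VII and IX-XI lay below them, a 2.61-fold range (adjusted p = 0.013, kept in all 12 fits without a sample). All 5 probe sets of Dnah10 passed the test and all were highest in XII-I.

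Dnah2 followed another course, with values of 11.76 and 11.37 in XII-I, 10.43 and 11.14 in II-IV, 10.31 and 10.20 in IV-VI, 10.60 and 10.47 in VII, 11.53 and 11.60 in VIII-IX and 11.50 and 11.17 in IX-XI. All 6 samples of VIII-IX, IX-XI and XII-I lay above the 6 samples of II-IV, IV-VI and VII, and the range was 2.48-fold (adjusted p = 0.017, kept in all 12 fits). Dnah14, placed here with the inner arms by its symbol, read 11.02 and 10.52 in XII-I, 9.89 and 10.37 in II-IV, 9.85 and 9.51 in IV-VI, 9.95 and 9.94 in VII, 10.79 and 10.96 in VIII-IX and 10.77 and 10.48 in IX-XI. It divided the groups as Dnah2 did, without overlap, with a 2.29-fold range (adjusted p = 0.021, kept in 10 of 12 fits).

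For Dnah12 the levels were 12.23 and 11.92 in XII-I, 11.48 and 11.84 in II-IV, 11.16 and 11.29 in IV-VI, 11.06 and 11.03 in VII, 11.76 and 12.09 in VIII-IX and 11.80 and 11.55 in IX-XI. Both VII samples were the lowest of the 12, and XII-I overlapped with VIII-IX, over a 2.04-fold range (adjusted p = 0.019, kept in 11 fits). The other probe set of Dnah12 was highest in VIII-IX and lowest in VII, and passed limma's F test over all probe sets (adjusted p = 0.025). Dnah6 read 11.59 and 11.50 in XII-I, 10.88 and 11.37 in II-IV, 10.57 and 10.81 in IV-VI, 10.59 and 10.45 in VII, 11.31 and 11.26 in VIII-IX and 11.09 and 10.79 in IX-XI. Its XII-I samples were the 2 highest, VII overlapped with IV-VI, and the range was 2.03-fold (adjusted p = 0.022, kept in 8 fits), with all 3 of its probe sets past the test. Dnah1, whose loss leaves men with short or absent tails, was 1.66-fold higher in XII-I than in IV-VI (adjusted p = 0.024).

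The close copies Dnah7a, Dnah7b and Dnah7c share sequence, so their probe sets may read each other's transcripts and the values are uncertain. Dnah7c was 1.51-fold higher in VIII-IX than in IV-VI (adjusted p = 0.033), and Dnah7a and Dnah7b, also with their highest means in VIII-IX, did not pass (adjusted p = 0.12 and 0.23). A dimmer probe set of Dnah7b, at a mean of 7.75, was highest in XII-I and lowest in IX-XI. It passed limma's F test over all probe sets (adjusted p = 0.045).

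Dnah3 moved over a wider range than any other inner arm chain, but with large spread within groups. It read 10.65 and 11.77 in XII-I, 12.24 and 11.81 in II-IV, 12.47 and 12.56 in IV-VI, 12.46 and 12.31 in VII, 11.38 and 10.57 in VIII-IX and 11.27 and 12.02 in IX-XI. The high levels were in IV-VI and VII, samples of XII-I differed from each other by more than 1 unit, and the 2.90-fold range did not pass the F test (adjusted p = 0.065). The array carries 33 probe sets for Dnah3, and the same course was read by nearly all of them: 33 of 33 were highest in IV-VI, 32 of 33 lowest in VIII-IX, with ranges from 1.54 to 2.47, and 1 passed the test. These probe sets share their samples and are no replicates of a stage.

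**Figure D2:**
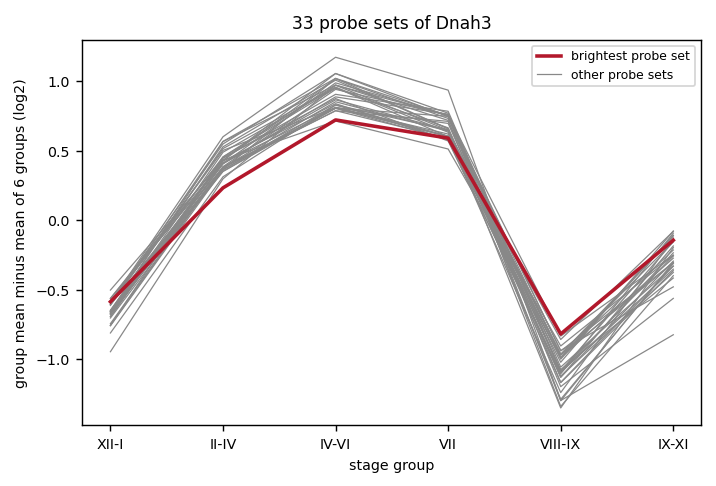
Group mean minus the mean of the 6 groups (log2 intensity, vertical axis) for each of the 33 probe sets of Dnah3, by stage group (horizontal axis), with the brightest set in red. Every line is highest in IV-VI, and all but 1 are lowest in VIII-IX.

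Of the intermediate and light chains, which anchor and regulate the arms, 2 of 5 passed. Dnaic2, an intermediate chain of the outer arm, had the widest range of all 68 genes. It read 11.68 and 11.60 in XII-I, 10.36 and 11.55 in II-IV, 9.13 and 10.12 in IV-VI, 8.70 and 8.83 in VII, 10.05 and 10.64 in VIII-IX and 9.96 and 9.04 in IX-XI. Both XII-I samples lay above the 10 others, though II-IV sample 2 came close to them, and both VII samples lay below the 10 others. The highest mean was 7.33-fold the lowest (adjusted p = 0.021, kept in 11 of the 12 fits without a sample). Its partner Dnaic1 was 1.30-fold higher in XII-I than in VIII-IX (adjusted p = 0.041), a call kept in 0 of those 12 fits. The light chains Dnali1 of the inner arm (1.38-fold, adjusted p = 0.053), Dnal4 (1.35-fold, 0.059) and Dnal1 (1.65-fold, 0.078) did not pass.

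Assembly factors build the arms in the cytoplasm, and 4 of 7 passed. Dnaaf3 read 11.80 and 11.70 in XII-I, 11.33 and 11.60 in II-IV, 10.88 and 11.36 in IV-VI, 10.92 and 10.73 in VII, 11.14 and 11.27 in VIII-IX and 11.07 and 10.87 in IX-XI. Its XII-I samples were the 2 highest, the lowest levels of VII, IV-VI and IX-XI overlapped, and the range was 1.90-fold (adjusted p = 0.029, kept in 5 of 12 fits). Dnaaf4 took a different course, with 10.47 and 9.95 in XII-I, 9.74 and 9.72 in II-IV, 9.94 and 9.56 in IV-VI, 10.02 and 10.11 in VII, 10.46 and 10.63 in VIII-IX and 10.56 and 10.38 in IX-XI. It was high in VIII-IX and IX-XI, where XII-I sample 1 joined it, and low in II-IV and IV-VI, a 1.76-fold range (adjusted p = 0.033, kept in 3 of 12 fits). Dnaaf5 had its high in XII-I and its low in VII (1.54-fold, adjusted p = 0.035) and the X-linked Dnaaf6b 1.39-fold higher in II-IV than in IX-XI (adjusted p = 0.025). Dnaaf6, a related gene whose probe set may share signal with Dnaaf6b, ranged 2.25-fold with its high in VIII-IX and did not pass (adjusted p = 0.058). Nor did Dnaaf2 (1.25-fold) and Dnaaf1 (1.22-fold).

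Limma's F test called 0 of the 5 radial spoke genes after adjustment, and 3 had an unadjusted p under 0.05. Rsph6a, a spoke head protein of sperm, ranged 1.62-fold from VII to XII-I (adjusted p = 0.051), Rsph14 1.67-fold from XII-I to IV-VI (0.054) and the spoke head protein Rsph1 1.43-fold from VII to XII-I (0.056). Rsph9 ranged 1.18-fold and Rsph4a, at a mean of 6.06 near the bottom of the array, 1.15-fold.

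Tektins are filaments inside the doublet microtubules, and 4 of 5 passed. Tekt3 read 10.97 and 11.08 in XII-I, 11.11 and 11.15 in II-IV, 11.02 and 11.16 in IV-VI, 10.94 and 10.79 in VII, 10.52 and 10.51 in VIII-IX and 10.45 and 10.53 in IX-XI. The 4 samples of VIII-IX and IX-XI lay below the 8 others (1.56-fold, adjusted p = 0.011, kept in all 12 fits without a sample). Tekt4 read 12.44 and 12.69 in XII-I, 12.87 and 12.76 in II-IV, 12.93 and 12.98 in IV-VI, 12.92 and 12.76 in VII, 12.17 and 11.80 in VIII-IX and 12.18 and 12.59 in IX-XI. It was lowest in both VIII-IX samples, which lay just under IX-XI sample 1, over a 1.96-fold range (adjusted p = 0.024, kept in 9 fits). Tekt1 had its low in the same group (1.39-fold, adjusted p = 0.034), and Tekt2, also lowest in VIII-IX with a 1.89-fold range, did not pass (adjusted p = 0.059).

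Tekt5, a tektin of the sperm tail, ran the other way. It read 12.34 and 11.46 in XII-I, 11.80 and 11.29 in II-IV, 12.50 and 11.83 in IV-VI, 12.80 and 12.62 in VII, 12.997 and 12.80 in VIII-IX and 12.999 and 13.02 in IX-XI. All 6 samples of VII, VIII-IX and IX-XI lay above the 6 others, which spread from 11.29 to 12.50, and the range was 2.75-fold (adjusted p = 0.033, kept in 5 of 12 fits). The median difference of the 5 tektins from the other groups was -0.41 in VIII-IX and -0.03 in XII-I, whereas for the 10 inner arm heavy chains it was 0.34 in VIII-IX and 0.47 in XII-I.

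**Figure D3:**
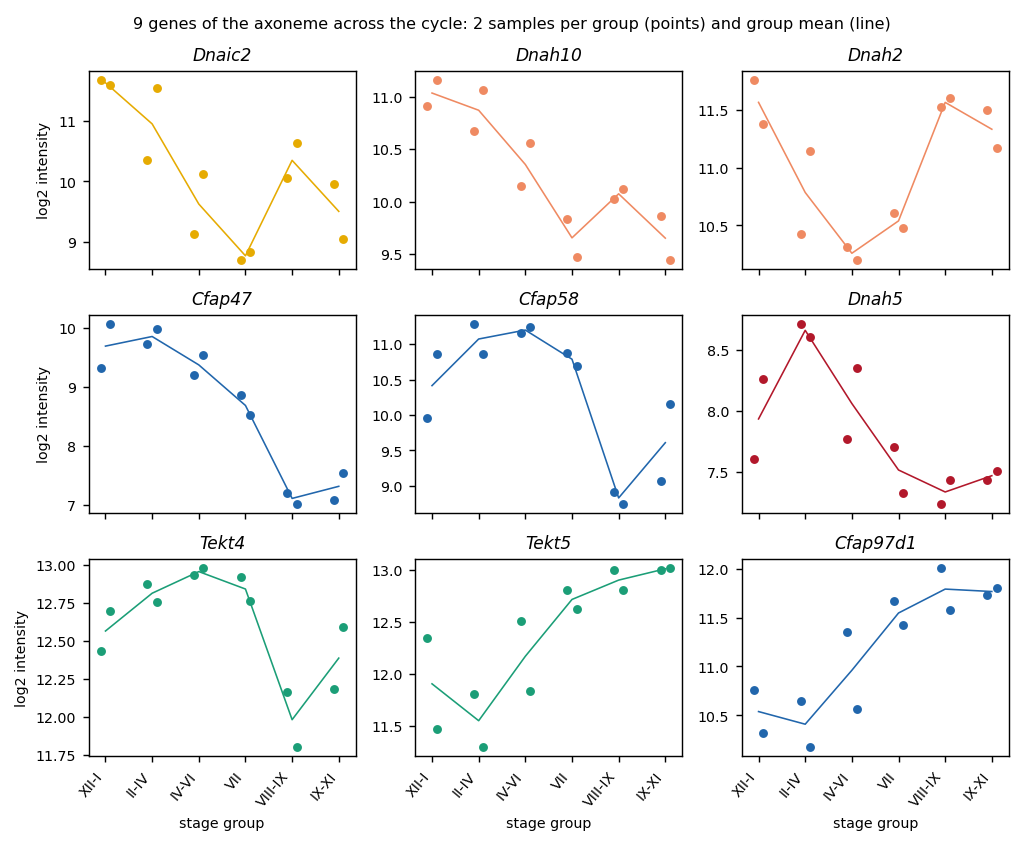
Log2 intensity (vertical axes, which do not start at 0) of 9 genes in the 2 samples of each stage group (points), with lines through the group means. Dnaic2 and Dnah10 fall from XII-I to VII, Cfap47, Cfap58 and Tekt4 are low in VIII-IX, and Tekt5 and Cfap97d1 are high from VII to IX-XI.

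Of the 31 CFAP genes, 17 passed. Cfap47, an X-linked gene for a protein of the central apparatus, read 9.32 and 10.06 in XII-I, 9.73 and 9.98 in II-IV, 9.20 and 9.54 in IV-VI, 8.85 and 8.52 in VII, 7.20 and 7.02 in VIII-IX and 7.08 and 7.55 in IX-XI. The 4 samples of VIII-IX and IX-XI, from 7.02 to 7.55, lay below the 8 others, and its 6.71-fold range had the lowest adjusted p of all 68 genes (0.00597, kept in all 12 fits without a sample). Cfap58, which is needed for a normal sperm midpiece and tail, read 9.96 and 10.87 in XII-I, 11.28 and 10.86 in II-IV, 11.16 and 11.24 in IV-VI, 10.88 and 10.69 in VII, 8.91 and 8.75 in VIII-IX and 9.07 and 10.15 in IX-XI. Both VIII-IX samples were the lowest, IX-XI and XII-I were spread widely, and the range was 5.16-fold (adjusted p = 0.016, kept in 10 fits).

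Several genes for proteins inside the doublet microtubules also passed. Cfap45 read 10.70 and 11.01 in XII-I, 11.11 and 11.03 in II-IV, 11.09 and 11.12 in IV-VI, 10.87 and 10.77 in VII, 10.10 and 10.16 in VIII-IX and 10.35 and 10.74 in IX-XI. Both VIII-IX samples lay below the 10 others, a 1.96-fold range (adjusted p = 0.016, kept in 10 fits). Cfap52 instead had its high in XII-I and II-IV, with 12.19 and 12.25 in XII-I, 12.05 and 12.29 in II-IV, 11.65 and 11.93 in IV-VI, 11.36 and 11.43 in VII, 11.50 and 11.77 in VIII-IX and 11.56 and 11.33 in IX-XI. These 4 samples lay above the 8 others (1.77-fold, adjusted p = 0.017, kept in all 12 fits). Cfap161 read 11.95 and 12.05 in XII-I, 11.65 and 11.97 in II-IV, 11.13 and 11.59 in IV-VI, 10.86 and 10.72 in VII, 11.13 and 11.51 in VIII-IX and 11.22 and 10.95 in IX-XI. XII-I overlapped with II-IV sample 2 and both VII samples were the lowest, with a 2.31-fold range (adjusted p = 0.019, kept in 11 fits). Cfap53 was 1.44-fold higher in XII-I than in VIII-IX (adjusted p = 0.033).

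The central apparatus protein Cfap46 read 10.84 and 10.64 in XII-I, 10.13 and 10.49 in II-IV, 9.95 and 9.86 in IV-VI, 10.11 and 9.82 in VII, 10.61 and 10.68 in VIII-IX and 10.69 and 10.55 in IX-XI. As in Dnah2 and Dnah14, all 6 samples of VIII-IX, IX-XI and XII-I lay above the other 6, here over a 1.78-fold range (adjusted p = 0.017, kept in all 12 fits). The other probe set of Cfap46 was highest in VIII-IX, not XII-I, and passed limma's F test over all probe sets (adjusted p = 0.026). Cfap54 (1.57-fold), Cfap74 (1.56-fold) and Cfap65 (1.36-fold), also tied to the central apparatus, passed with their high in XII-I and their low in VII, with adjusted p = 0.024, 0.029 and 0.045. The call of Cfap65 was kept in 0 of the 12 fits without a sample. The other probe set of Cfap74, also highest in XII-I, did not pass limma's F test over all probe sets (adjusted p = 0.052).

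Cfap44, part of a tether of an inner arm dynein, read 11.53 and 11.50 in XII-I, 11.16 and 11.26 in II-IV, 10.96 and 11.02 in IV-VI, 10.83 and 10.67 in VII, 10.96 and 11.23 in VIII-IX and 11.12 and 10.94 in IX-XI. Both XII-I samples lay above and both VII samples below all 10 others (1.70-fold, adjusted p = 0.023, kept in 9 fits). Cfap43, its partner in that tether, did not pass (1.43-fold, adjusted p = 0.11), although all 5 of its probe sets were highest in XII-I. Cfap57 (1.61-fold, adjusted p = 0.028), tied to inner arm assembly, Cfap298 (1.54-fold, 0.041), an assembly factor, and Cfap70 (1.59-fold, 0.025) were highest in XII-I and lowest in VII. The other probe set of Cfap57 had its high and low in the same groups but did not pass limma's F test over all probe sets (adjusted p = 0.068). Cfap61, of the complex at the base of the spokes, was highest in II-IV and lowest in VIII-IX (1.50-fold, 0.020).

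Cfap97 and the related Cfap97d1, which is needed for the sperm axoneme, had their highs and lows in different groups. Cfap97 read 12.58 and 12.54 in XII-I, 12.09 and 12.47 in II-IV, 11.46 and 11.83 in IV-VI, 11.50 and 11.65 in VII, 12.10 and 12.37 in VIII-IX and 12.26 and 11.95 in IX-XI. Both XII-I samples were the highest and the 4 samples of IV-VI and VII the lowest (1.97-fold, adjusted p = 0.025, kept in 8 fits). Cfap97d1 read 10.76 and 10.32 in XII-I, 10.65 and 10.17 in II-IV, 11.36 and 10.56 in IV-VI, 11.67 and 11.42 in VII, 12.01 and 11.57 in VIII-IX and 11.74 and 11.80 in IX-XI. All 6 samples of VII, VIII-IX and IX-XI lay above the 6 others (2.61-fold, adjusted p = 0.023, kept in 9 fits).

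The 14 other CFAP genes did not pass, with ranges from 0.11 to 1.77. The widest of these were Cfap100 (3.42-fold, adjusted p = 0.058) and Cfap77 (3.30-fold, 0.053), both highest in IV-VI, with samples of a group far apart. Cfap100 read 7.43 and 8.54 in XII-I, 9.61 and 8.63 in II-IV, 9.81 and 9.71 in IV-VI, 9.76 and 9.42 in VII, 8.69 and 8.33 in VIII-IX and 8.82 and 9.46 in IX-XI. XII-I sample 1 was the lowest of the 12, and XII-I sample 2 lay between the VIII-IX samples. At the other end, the 3 narrowest ranges among bright genes were those of Cfap126 (0.11), Cfap206 (0.14) and Cfap300 (0.18), the last an assembly factor for dynein arms.

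Each group was then compared with the mean of the other 5, which asks where a gene was high or low. Most calls lay in XII-I, where 23 of the 68 genes were higher (33.8%, against 7.49% of all genes) and 2 were lower (2.94%, against 3.32%), and 43 did not pass. At an unadjusted p under 0.05 lay 40 of the 68, against 26.7% of all genes. That count was 34 in IV-VI and 33 in VII, where the adjustment left 0 calls among all genes. The median difference of the 68 genes was 0.22, with 50 of 68 above 0, and that of all genes 0.01. The largest rise was that of Dnaic2, 1.80 ± 0.35 (SE) or 3.48-fold (adjusted p = 0.023, limma), followed by Cfap47 (1.22 ± 0.20, adjusted p = 0.021) and Dnah10 (0.91 ± 0.16, adjusted p = 0.022). The highest mean of Cfap47 lay in II-IV (9.85, against 9.69 in XII-I). Its difference in II-IV was 1.42 ± 0.20 (adjusted p = 0.067, limma). The others were Cfap161 (0.73), Dnah2 (0.67), Dnaaf3 (0.64), Dnah6 (0.63), Cfap97 (0.59), Dnah12 (0.57), Cfap52 (0.53), Cfap44 (0.50), Rsph6a (0.47), Cfap46 (0.45), Cfap57 (0.43), Dnah17 (0.43), Dnah1 (0.42), Cfap298 (0.38), Cfap74 (0.37), Cfap54 (0.36), Dnaaf5 (0.34), Dnali1 (0.30), Cfap65 (0.27) and Dnaic1 (0.25). Among these, Rsph6a and Dnali1 had not passed the F test. In the same contrast 2 of 9 epididymal markers rose, Rnase10 (1.25) and Aqp9 (0.95), and the summed level of that list was 13.05 to 13.43 in XII-I, 12.87 to 13.08 in II-IV, 12.79 to 12.83 in IV-VI, 12.60 to 13.54 in VII, 12.76 to 13.09 in VIII-IX and 12.55 to 13.05 in IX-XI. Their part in the rises was not tested. Cfap100 fell by 1.24 (SE 0.31, adjusted p = 0.039) and Rsph14 fell by 0.43 (SE 0.12, adjusted p = 0.049).

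With array quality weights, which drop no sample, 3 genes were higher in XII-I and 0 lower, with 33 of the 68 at an unadjusted p under 0.05. The count of 23 in XII-I was 0 without XII-I sample 1 or sample 2, where the group rests on 1 sample that is assumed to vary like the others, with 28 and 37 of the 68 at an unadjusted p under 0.05. It was 9 and 15 without IV-VI samples 1 and 2, 15 and 14 without VII samples 1 and 2, 11 without VIII-IX sample 1 and 8 without IX-XI sample 2. The median difference in XII-I moved less, from 0.20 to 0.24 over the 12 fits without a sample. The count of 2 lower, a share close to that of all genes, became 0 on dropping the first sample of XII-I, IV-VI or VIII-IX, either VII sample or the second of IX-XI, and 1 on dropping the second sample of XII-I or IV-VI or the first of IX-XI.

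In VIII-IX, 10 genes were lower (14.7%, against 4.31% of all genes) and 4 higher (5.88%, against 3.54%), and 37 of the 68 had an unadjusted p under 0.05 (24.9% of all genes). Cfap47 fell by 1.88 (SE 0.20, adjusted p = 0.0077, limma) and Cfap58 fell by 1.79 (SE 0.28, adjusted p = 0.014), which are 3.67-fold and 3.45-fold. Cfap77 fell by 1.23, Cfap45 by 0.75, Tekt4 by 0.73, Tekt3 by 0.41, Dnah9 by 0.37, Cfap157 and Cfap61 by 0.36 each and Tekt1 by 0.35. The 4 higher genes were Dnah2 (0.67), Dnah14 (0.64), the outer arm light chain Dnal1 (0.55) and Dnah7c (0.42), too few to be read as a trait of dynein chains. Of the genes called in VIII-IX, Dnal1, Cfap77 and Cfap157 had not passed the F test. With array quality weights 4 were lower and 0 higher, with 32 of the 68 at an unadjusted p under 0.05. The count of 10 lower became 0 and 2 when VIII-IX samples 1 and 2 were dropped in turn, and 5 when IV-VI sample 2 or IX-XI sample 2 was. The count of 4 higher was 0 without either VIII-IX sample or IV-VI sample 2, 1 without either VII sample or IX-XI sample 2, 2 without IV-VI sample 1, 11 without XII-I sample 1 and 8 without II-IV sample 2.

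In IX-XI, 4 genes were lower (5.88%, against 1.8% of all genes) and limma called 0 higher (1.9% of all genes), with 20 of the 68 at an unadjusted p under 0.05 in either direction (22% of all genes). Cfap47 fell by 1.63 (SE 0.20, adjusted p = 0.013), Dnah10 by 0.75, Tekt3 by 0.43 and Dnaaf6b by 0.33. The 4 became 0 without either IX-XI sample and 2 without IV-VI sample 2, and the 0 higher became 2 without XII-I sample 1 and 1 without IV-VI sample 1 or with array quality weights. For II-IV, IV-VI and VII, limma called 0 of all genes after adjustment (0%), and at an unadjusted p under 0.05 lay 22, 34 and 33 of the 68 (17.2%, 20.4% and 19.9% of all genes).

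**Figure D4:**
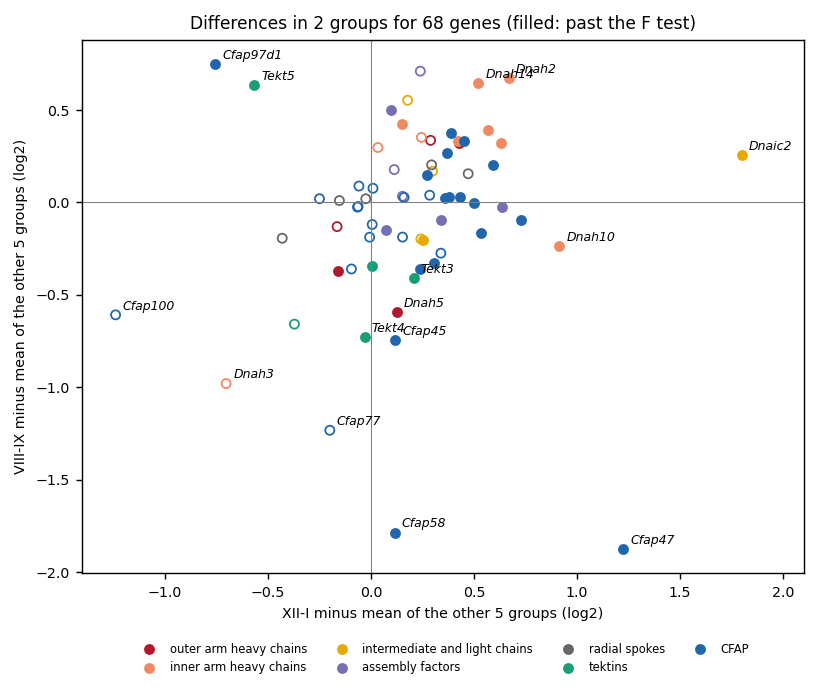
Each point is 1 of the 68 genes: the difference of XII-I (horizontal) and of VIII-IX (vertical) from the mean of the other 5 groups, in log2 units, filled where the gene passed the F test and coloured by role. Both axes use the same 12 arrays, so the positions are not independent; Dnaic2 lies farthest to the right (1.80) and Cfap47 lowest (-1.88).

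Following the genes from group to group, 2 of the 6 steps held called genes. From IX-XI to XII-I, 15 genes rose (22.1%, against 7.33% of all genes) and 2 fell (2.94%, against 4.63%), and 30 of the 68 had an unadjusted p under 0.05 (27.8% of all genes). Cfap47 rose 5.20-fold (2.38 ± 0.25 SE, adjusted p = 0.0071, limma), Dnaic2 4.39-fold (2.14 ± 0.45) and Dnah10 2.61-fold (1.38 ± 0.21). Cfap161 rose by 0.91, Dnaaf3 by 0.78, Cfap52 by 0.77, Dnah6 by 0.61, Tekt3 by 0.53, Cfap57 by 0.49, Cfap44 and Cfap61 by 0.48 each, Cfap53 and Cfap298 by 0.43 each, Dnaic1 by 0.35 and Dnaaf6b by 0.34. The 2 that fell, a share below that of all genes, were Cfap97d1 (-1.23) and Tekt5 (-1.11). The count of 15 was 9 and 2 without XII-I samples 1 and 2, and 4 and 1 without IX-XI samples 1 and 2, and that of 2 was 0 without XII-I sample 2 or either IX-XI sample and 1 without any one of the VII and VIII-IX samples.

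From VII to VIII-IX, 9 genes rose (13.2%, against 2.27% of all genes) and 4 fell (5.88%, against 1.66%), with 42 of the 68 at an unadjusted p under 0.05 (25.3% of all genes). Of the 9, 7 were heavy chains: Dnah2 (1.03), Dnah14 (0.93), Dnah12 (0.88), Dnah6 (0.76), Dnah17 (0.64), Dnah1 (0.60) and Dnah7c (0.57), beside Cfap46 (0.67) and Cfap70 (0.66). The falls were those of Cfap58 (-1.96), Cfap47 (-1.58), Tekt4 (-0.86) and Cfap45 (-0.69). All 13 had adjusted p-values between 0.0429 and 0.0498. With array quality weights both counts were 0, with 38 of the 68 at an unadjusted p under 0.05. The 9 became 0 without either sample of IV-VI, VIII-IX or IX-XI or VII sample 2, and 2 without VII sample 1. The 4 became 0 without either sample of IV-VI or VIII-IX or VII sample 2, 1 without VII sample 1 or either IX-XI sample, and 9 without either XII-I sample. In the other 4 steps limma called 0 of all genes (0%), and at an unadjusted p under 0.05 lay 18 of the 68 from XII-I to II-IV, 14 from II-IV to IV-VI, 9 from IV-VI to VII and 5 from VIII-IX to IX-XI (9.93%, 6.63%, 5.93% and 4.64% of all genes).

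Other genes of the axoneme and its making were followed in 8 lists with 119 entries, of which 106 were measured and are not among the 68. Of these 106, 49 passed the F test (46.2%, against 19.9% of all genes and 31.9% of genes with a mean of at least 10). Microtubule inner proteins passed in 9 of 13, with 2 higher and 1 lower in XII-I and 1 higher and 4 lower in VIII-IX. Ccdc105 (3.53-fold) and 1700007K13Rik (2.84-fold) were highest in IV-VI and lowest in VIII-IX, and Spaca9 (1.89-fold) was highest in VIII-IX. Of the docking and ruler genes, which set where arms bind on the doublet, 5 of 8 passed, 3 of them higher and 1 lower in XII-I, and 1 higher and 1 lower in VIII-IX. The widest were Efcab1 (3.40-fold, from VII to VIII-IX), the docking protein Ccdc151 (2.89-fold, from VII to XII-I) and the ruler Ccdc40 (2.54-fold, from VII to XII-I).

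The nexin-dynein regulatory complex links neighbouring doublets, and 6 of its 10 genes passed, with 5 higher and 1 lower in XII-I, 2 lower in VIII-IX and 1 lower in IX-XI. Iqca, as the widest of all listed genes, was 7.77-fold higher in II-IV than in VIII-IX (adjusted p = 0.010), and Tcte1 (2.02-fold) and Drc1 (1.56-fold) were highest in XII-I and lowest in VII. In a list of dynein subunits outside the name rule 6 of 11 passed, with 3 higher in XII-I, 1 higher in VIII-IX and 1 lower in IX-XI. Of these Wdr78 (2.56-fold) was highest in XII-I, and Tctex1d1 (2.05-fold) and Dynlt3 (2.02-fold) in VIII-IX. Among other assembly factors 5 of 10 passed, with 2 higher in XII-I and 2 lower in VIII-IX, and Spag1 (1.89-fold), Pih1d2 (1.66-fold) and Zmynd10 (1.57-fold) were highest in XII-I.

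Of the central apparatus genes, 2 of 8 passed, with 1 higher and 1 lower in VIII-IX. Spag6 was 3.73-fold higher in IV-VI than in VIII-IX (adjusted p = 0.029) and Spef1 1.62-fold higher in VIII-IX than in IV-VI (adjusted p = 0.028). Intraflagellar transport, which carries tail parts to the growing tip, had 11 of 30 past the test, 5 higher in XII-I and 5 lower in VIII-IX. Traf3ip1 (1.92-fold) and Dync2li1 (1.81-fold) were highest in II-IV and lowest in VIII-IX, and Wdr19 (1.85-fold) was highest in XII-I and lowest in VII. Of the transcription factors tied to cilia, 5 of 16 passed, with 2 lower in XII-I, 2 lower in VIII-IX and 1 lower in IX-XI. Foxj1, a master regulator of motile cilia, was 2.69-fold higher in IV-VI than in VIII-IX (adjusted p = 0.014), as was E2f5 (2.69-fold, 0.018), and Sox5 was 2.21-fold higher in IV-VI than in XII-I (0.042). Rfx2, which is needed for spermatids to mature, ranged 1.24-fold and did not pass.

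**Figure D5:**
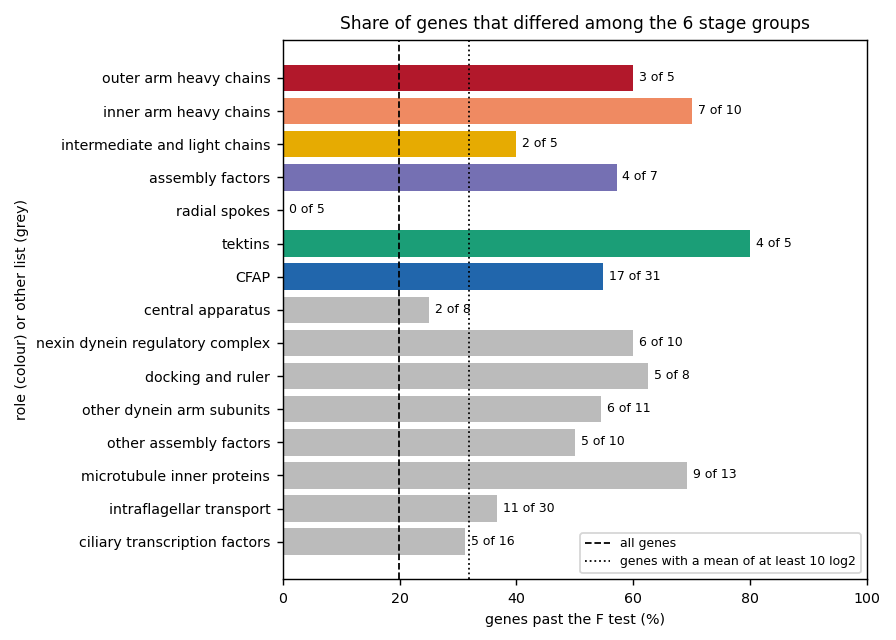
Share of genes past the F test (horizontal axis, percent, from 0) in each role of the 68 genes (colour) and in 8 other lists (grey), with counts at the bars. The dashed line marks all genes (19.9%) and the dotted line genes with a mean of at least 10 (31.9%); radial spokes are at 0 of 5 and tektins at 4 of 5.

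The count of 49 came to 19 and 20 when IV-VI samples 1 and 2 were dropped in turn, 18 for VII sample 2, 18 and 19 for VIII-IX samples 1 and 2, and 18 and 23 for IX-XI samples 1 and 2. Each share rests on few genes. A share near that of all genes (19.9%), or of genes with a mean of at least 10 (31.9%), is no result about a list.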

How the data were processed

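Intensity values for the 12 arrays were deposited as 1 table. Per the submitters' processing notes RMA was used, which corrects background, quantile normalizes and summarizes probes; no version was given in the sources used here. Deposited intensity values were linear, from 24.97 to 21760, with array medians from 296.9 to 309.1, and were turned into log2 values. RMA makes the arrays alike, so every change is relative to the other transcripts, and the number of arrays limits precision. The platform annotation gave 1 gene symbol to 21789 of 28853 probe sets, which were used, several to 1621 and does not list 5443. The brightest set was taken for 999 genes with more than 1, giving 19938 genes. Symbols were checked against RefSeq (GRCm38.p6) through Entrez IDs, with 0 symbols changed and 91 IDs missing there. The build of the array annotation is unknown here, and coordinates are given for promoter windows alone.

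Limma 3.58.1 in R 4.3.3 (lmFit, eBayes) fitted 6 group means to all 12 samples, leaving 6 residual degrees of freedom. Its moderated F test, contrasts of each group with the other 5, and steps between neighbouring groups were adjusted by Benjamini-Hochberg over all genes in each, at 0.05. The code was tested on simulated data. Every gene past the F test was named, the 20 with the widest ranges were given in full, the 3 with the lowest p in each role were described, and the 3 widest per other list and the 3 narrowest among genes brighter than the median member (11.18) were named. The genes and lists were chosen with earlier results of these data known, and the motifs after the windows were seen. Alternatives were repeated quantile normalization, no dim genes, mean over probe sets, array weights, a variance trend, the replicate number as a block and leaving out samples.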

Additional observations from a re-analysis of the deposited data

How the results depend on the processing

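Under repeated quantile normalization 64 of the 68 genes kept their highest group, and 66 did with the mean over all probe sets. The repeated normalization moved the median of all genes by up to 0.0237. Of the 37 genes called by the F test, 35 were called again among 38 after repeated normalization, all 37 among 46 of 66 without the dimmest 30% of genes, all 37 with the mean over probe sets, 35 among 44 with array quality weights and all 37 among 48 with a variance trend. Array weights left 3 genes higher and 0 lower in XII-I, 0 higher and 4 lower in VIII-IX, 1 higher in IX-XI, and 0 in either direction from VII to VIII-IX. The labels do not say whether the replicate numbers pair the samples. Of 15 correlations between groups of sample 1 minus sample 2, 7 were over 0.1, and all ran from -0.354 to 0.541. Whether samples with the same number were paired or shared a batch was not tested. With the replicate number as a block, the F test called the same 37 genes, 2 were higher in IX-XI, and from VII to VIII-IX 0 rose and 2 fell. With the second samples of both VIII-IX and IX-XI left out, chosen after seeing the data, the F test called 19 of all genes, 0 of the 68, 0 listed genes and 0 highest in XII-I, and 0 passed in either direction in XII-I, VIII-IX and IX-XI and in both steps. That fit has fewer samples, and for the other shifts the cause was not tested. Leaving out 1 sample at a time, the F test called 1517 to 4269 of all genes, 14 to 38 of the 68, 18 to 51 listed genes and 5 to 21 highest in XII-I. The contrasts gave 0 to 26 higher and 0 to 3 lower in XII-I, 0 to 11 higher and 0 to 14 lower in VIII-IX, and 0 to 2 higher and 0 to 4 lower in IX-XI. The steps gave 0 to 13 up and 0 to 9 down from VII to VIII-IX, and 1 to 17 up and 0 to 2 down from IX-XI to XII-I. Of the 37 genes, 6 were called in each of these 12 fits (Cfap47, Dnah10, Dnah2, Cfap46, Cfap52 and Tekt3) and 2 in none (Cfap65 and Dnaic1). With 2 samples a group, a lone sample left in a group is assumed to vary like the others.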

Other observations

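Probe sets that carry several of the gene symbols were kept out of the 68 genes, and some of them read genes of the same machinery. The radial spoke pair Rsph3b and Rsph3a, spoke stalk proteins, shared 2 probe sets. The brighter set, a mean of 2 samples with its SD, read 12.71 ± 0.09 in XII-I, 12.54 ± 0.17 in II-IV, 12.35 ± 0.09 in IV-VI, 12.34 ± 0.003 in VII, 12.73 ± 0.12 in VIII-IX and 12.52 ± 0.15 in IX-XI, and did not pass limma's F test over all probe sets (adjusted p = 0.11 for this set and 0.080 for the other). For the dynein heavy chains Dnah7c, Dnah7a and Dnah7b, which also shared 2 sets, one passed (adjusted p = 0.033), with 11.92 ± 0.20 in XII-I, 11.65 ± 0.05 in II-IV, 11.54 ± 0.07 in IV-VI, 11.50 ± 0.07 in VII, 12.03 ± 0.04 in VIII-IX and 11.94 ± 0.11 in IX-XI. The other did not (adjusted p = 0.43). A set shared by Cfap43 and Itprip had its highest mean in XII-I (10.78 ± 0.06) and did not pass (adjusted p = 0.070).

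Among the marker lists, 1 of 8 spermatocyte genes, 1 of 7 spermatogonial genes, 1 of 5 macrophage genes and 2 of 9 epididymal genes passed the F test. Limma called 0 of 7 Sertoli, 0 of 5 Leydig and 0 of 5 peritubular myoid genes, with 1, 1 and 0 at an unadjusted p under 0.05. The other epididymal markers averaged 12.51 (Lcn2), 7.36 (Lcn9), 7.05 (Defb20), 6.80 (Lcn5), 6.38 (Lcn8), 5.95 (Adam7) and 5.26 (Spink13) over the 12 arrays, beside 10.36 for Aqp9 and 6.97 for Rnase10, the 2 that passed.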
